A study of Macaca mulatta with 5 samples.

Results

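Loops near the ends of the chromosomes were examined in Hi-C maps of cortical neurons from rhesus monkeys (Macaca mulatta). Hi-C joins DNA ends that lay close together in the nucleus, and a loop is a pair of loci, its anchors, in more contact than the surrounding pixels of the map. A loop was counted here when the midpoints of both anchors lay within 5 Mb of an end of chromosomes 1 to 20. The low-coordinate end is called the chromosome start, and the other, measured from the highest coordinate in any of the loop and domain lists, the chromosome end. Of 13932 loops in both maps together, 1232 met the rule. The saline map held 179 at starts and 192 at ends of its 5507 loops, and the morphine map held 421 and 440 of its 8425.

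Chromosome arms end in telomeres, and the DNA next to them, the subtelomere, is known for repeats, segmental duplications and recombination. Most loops of mammalian chromosomes form when cohesin extrudes DNA until it meets CTCF bound at convergent sites. Telomeres can also fold back onto loci some distance inside the chromosome.

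The study compared monkeys given morphine, which acts on mu-opioid receptors, over months with monkeys given saline. All were males of 3 to 4 years, and each group held 2 monkeys. Subcutaneous morphine was given 3 times daily over 90 days, the dose climbing from 3 to 15 mg/kg, and controls received 0.5 mL/kg of saline on the same schedule. The series holds 3 morphine and 2 saline libraries of cortical neurons, so some morphine libraries must share a monkey, and which ones is not known. Each loop list covers its whole group, and every comparison sets 1 pooled map against 1 pooled map, with no replicate check and no test between the groups. Library depth is unknown. Summed over all loop pixels, saline contacts numbered 119909 and morphine contacts 239042. The lists carry no expression values, so the neuronal identity of the samples was not checked here. The rhesus assembly is not named in the sources used here, so loops are given by coordinate, counted from 1, without genes or sequences. The true telomere positions are not in the lists, so distances at ends are measured from the last called feature.

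The morphine map held more than 2 loops for each saline loop near the chromosome ends. The ratio was 2.35 at starts (421 against 179, 95% interval 1.97 to 2.82) and 2.29 at ends (440 against 192, 1.93 to 2.73). On the rest of the 20 chromosomes it was 1.47 (7477 against 5072, 1.42 to 1.53), so neither interval overlapped that of the rest. These intervals are exact conditional binomial intervals. They cover counting error alone, not the spread between monkeys, and loops of 1 chromosome are not independent.

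In the saline map loops were about as dense near the chromosome ends as elsewhere, and in the morphine map, pooled over chromosomes, they were denser near the ends. In the saline map there were 1.79 loops per Mb at starts (Poisson interval 1.54 to 2.07) and 1.92 at ends (1.66 to 2.21), against 2.06 elsewhere (2.00 to 2.12). In the morphine map there were 4.21 per Mb at starts (3.82 to 4.63) and 4.40 at ends (4.00 to 4.83), against 3.03 elsewhere (2.97 to 3.10). End windows are measured from the last called feature, often a loop anchor, which can raise the density at ends in both maps. By chromosome, the morphine density was above that of the rest of the same chromosome at 27 of 40 ends and the saline density at 18, and both ends of chromosomes 10 and 19 lay below it in both maps. In all, 6.74% of the saline loops and 10.2% of the morphine loops lay in these windows. The contacts in the loop pixels differed by more than the loop number, with 4001 saline and 15339 morphine contacts at starts (a ratio of 3.83) and 4605 and 14488 at ends (3.15), against a ratio of 1.88 elsewhere. Such sums also move with the number of loops called.

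The excess was spread over nearly all chromosome ends. At 38 of the 40 ends the morphine map had more loops, at 2 the counts were equal, and at 0 the saline map had more. The counts ranged from 0 to 24 in the saline map (median 9.5) and from 1 to 50 in the morphine map (median 19.5). The equal ends were the end of chromosome 1, with 15 loops in each map, and the start of chromosome 2, with 1 in each. Outside the windows the morphine map also had more loops on every chromosome except chromosome 5 (151 morphine against 193 saline loops). A surplus of morphine loops by count was thus not particular to the ends. The interval of the ratio lay above 1 at 20 of the 40 ends. The ratio was also above 1 on the rest of the 20 chromosomes, at 1.47. At most single ends the interval included the ratio of the rest of the same chromosome, as at the start of chromosome 16 (1.15 to 3.28 against 1.89).

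**Figure D1:**
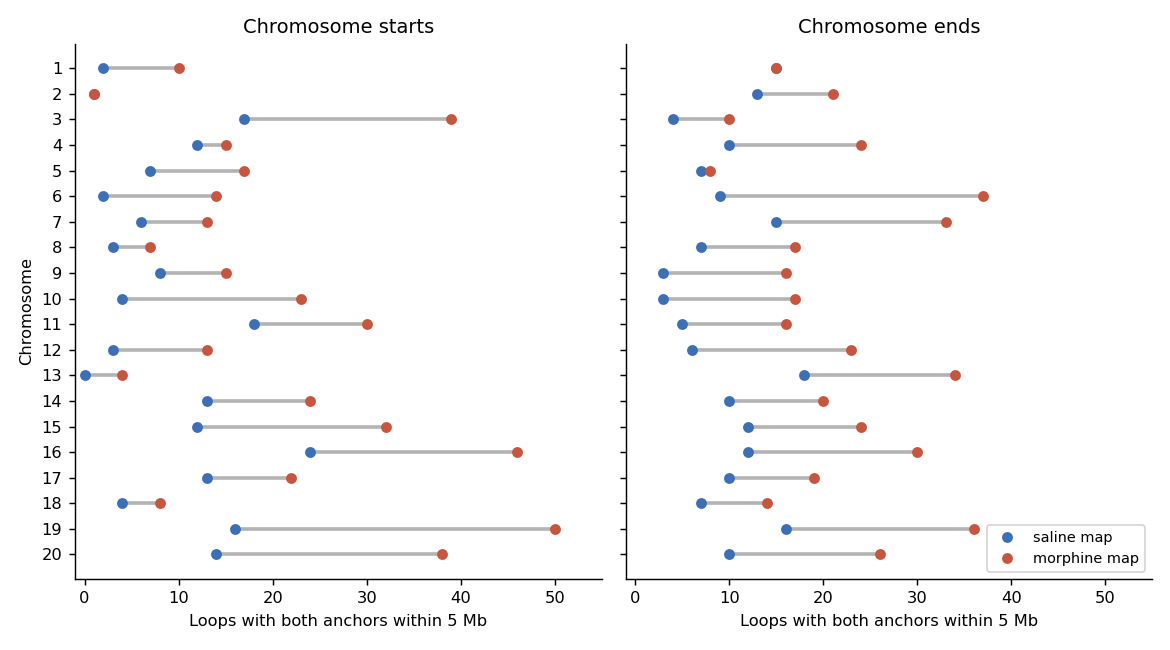
Loops with both anchors within 5 Mb of the start (left) or end (right) of each of 20 chromosomes, in the saline map (blue) and the morphine map (red), 1 point per map. The morphine point lies to the right at 38 of 40 chromosome ends and coincides with the saline point at the end of chromosome 1 and the start of chromosome 2.

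Among the 40 windows, the start of chromosome 19 held the most morphine loops, 50 against 16 (ratio 3.13, 1.75 to 5.88). At 10 loops per Mb it was less dense than the rest of that chromosome, at 12.1. This was also the largest difference of any chromosome end. The start of chromosome 16 followed with 46 against 24 (1.92, 1.15 to 3.28), and the start of chromosome 3 with 39 against 17 (2.29, 1.27 to 4.33). In the saline map the start of chromosome 16 ranked highest, followed by the start of chromosome 11 and the end of chromosome 13 with 18 each. The ratio was 1.67 at the start of chromosome 11 (30 morphine loops, 0.899 to 3.18) and 1.89 at the end of chromosome 13 (34 morphine loops, 1.04 to 3.55).

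The next largest differences were at 2 other chromosome ends. The end of chromosome 6 had 37 morphine loops against 9 (4.11, 1.95 to 9.69), and the start of chromosome 20 had 38 against 14 (2.71, 1.44 to 5.42). The start of chromosome 13 was the only end with no loop in a map, with 0 saline and 4 morphine loops. The end of chromosome 5 showed the smallest difference among the unequal ends, 8 against 7 (1.14, 0.362 to 3.70).

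The ratio near the ends was also above that of the rest of the same chromosome. Had each end followed the ratio of the rest of its own chromosome, the saline counts would have implied 273 morphine loops at starts and 287 at ends, ratios of 1.53 and 1.49. The map held 1.54 times as many as implied at starts and 1.53 times as many at ends. At 37 of the 39 ends with a saline loop, the ratio was above that of the rest of the same chromosome. The 2 exceptions were the equal ends on chromosomes 1 and 2. At most single ends, however, the interval of the ratio included the value of the rest. Chromosomes 10, 16, 19 and 20 had the highest morphine over saline ratios on the rest of their length. Without them the ratio was 2.18 at starts (1.75 to 2.73), 2.19 at ends (1.80 to 2.68) and 1.35 elsewhere (1.30 to 1.41). On those 4 chromosomes it was 2.71 (1.99 to 3.72), 2.66 (1.84 to 3.91) and 1.96 (1.82 to 2.11). On these 4 the intervals near the ends overlapped that of the rest, and on the other 16 they did not. This split by itself sets a high ratio of the rest on the 4 and a lower one on the 16. The pattern of overlap is therefore partly built in and does not show that the ends differ between these groups.

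At starts the loop ratio was highest in the first Mb. On both sides the ratio was lower far inside than over the 5 Mb window as a whole, without a step at 5 Mb. By the midpoint of the loop, the first Mb from the start held 75 morphine against 26 saline loops (2.88, 1.83 to 4.70), and the last Mb before the end held 43 saline loops (2.44, 1.70 to 3.57). At ends the bins from 2 to 3 Mb (85 against 34 loops, 1.66 to 3.84) and from 3 to 4 Mb were no lower. From 5 to 7.5 Mb the ratio was 1.98 (1.58 to 2.48) at starts and 1.81 (1.41 to 2.35) at ends. From 20 to 30 Mb it was 1.67 (1.48 to 1.89) and 1.57 (1.38 to 1.78), still above 1. Neighbouring bins overlapped in their intervals, and the order was not even, with 2.18 (1.69 to 2.84) from 7.5 to 10 Mb before the ends. The lowest ratio within 5 Mb, 1.68 (1.11 to 2.59), came from 4 to 5 Mb at starts, below the 1.74 from 15 to 20 Mb there. The density itself had no peak at the tips of the starts. In the saline map it was lowest in the first Mb of the starts, at 1.30 per Mb, and reached 2.66 per Mb from 10 to 15 Mb. In the morphine map the first Mb held 3.75 and the last Mb 5.25 loops per Mb. The tips are not measured alike, so these values are not directly comparable. Any stretch without loops beyond the highest listed coordinate is left out at ends, while starts are counted from the first base.

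**Figure D2:**
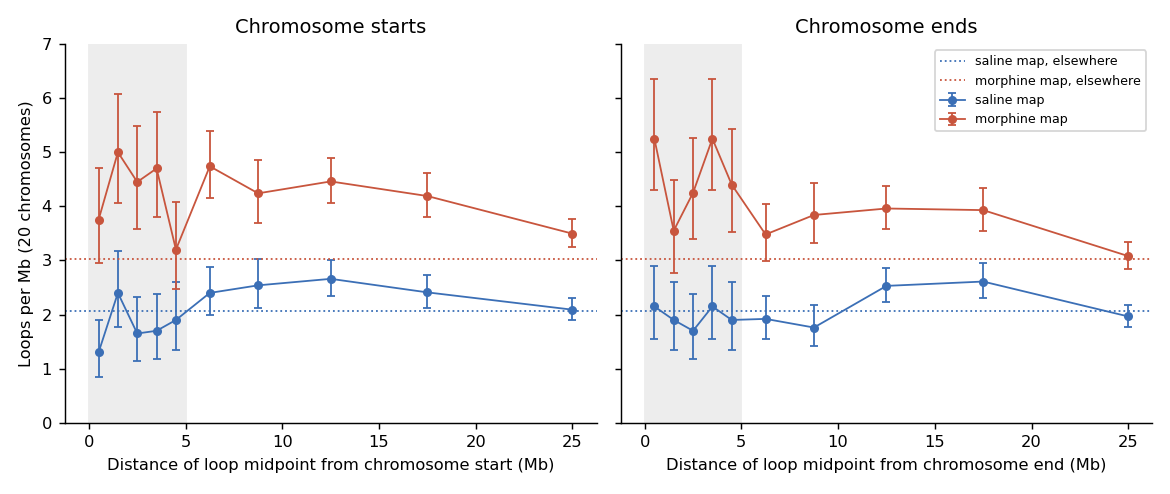
Loops per Mb over 20 chromosomes (y axis) against the distance of the loop midpoint from the chromosome start (left) or end (right) in Mb, for the saline map (blue) and the morphine map (red), with exact Poisson 95% intervals. Dotted lines give the density outside the 5 Mb windows, 2.06 and 3.03 loops per Mb, and the shaded band marks the window: the morphine points there lie above their dotted line, while the saline points lie on both sides of theirs.

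The contacts of the local background also differed more between the maps at chromosome starts than elsewhere, while at ends the interval reached that of the rest. Background is given here as the contacts that the loop caller expects in a pixel from the ring of pixels around it (donut). At loops found in both maps with the same anchor size, the median ratio of expected contacts, morphine over saline, was 2.34 at starts (quartiles 1.68 and 2.96, 92 pairs, interval 2.09 to 2.56) and 1.97 at ends (1.46 and 2.75, 84 pairs, 1.70 to 2.28). Elsewhere it was 1.67 (1.19 and 2.34, 2065 pairs, 1.62 to 1.71). The interval of a median is the binomial interval of its rank over loops. Expected contacts were higher in the morphine map at 87 of 92 pairs at starts and 76 of 84 at ends, or 94.6% and 90.5%, where 85.8% of all matched pairs in the genome were higher. Its part in the larger number of loops was not tested.

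Observed contacts differed by less than the background. At the same pairs the median ratio was 2.05 at starts (1.78 to 2.23) and 1.62 at ends (1.44 to 1.83), against 1.43 elsewhere (1.39 to 1.46). On chromosomes 10, 16, 19 and 20 the background factor was 2.68 at starts (27 pairs, 2.34 to 3.31) and 3.00 at ends (17 pairs, 2.42 to 3.88), and 2.54 elsewhere (450 pairs, 2.43 to 2.61). On the other 16 it was 2.11 (65 pairs, 1.79 to 2.45), 1.85 (67 pairs, 1.60 to 2.03) and 1.495 (1615 pairs, 1.45 to 1.54). There the background factor was higher near both chromosome ends than on the rest as a whole. On chromosomes 10, 16, 19 and 20 both intervals near the ends included the value elsewhere. By distance over all 20 chromosomes, the factor was 2.29 (1.90 to 2.53) at 5 to 7.5 Mb and 1.88 (1.74 to 2.16) at 20 to 30 Mb from the starts. Just beyond the start window it was thus close to the median of 2.34 inside. On the side of the ends the factor was 2.16 (2.05 to 2.56) at 5 to 7.5 Mb, 2.05 (1.70 to 2.17) at 7.5 to 10 Mb and 1.82 (1.64 to 2.02) at 20 to 30 Mb. It was no higher inside the end window than just beyond it.

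Enrichment, the observed over the donut-expected contacts, was lower in the morphine map at matched loops of the starts, over pairs of equal and unequal anchor size. Of the pairs, 92 of 134 at starts, 84 of 135 at ends and 2065 of 3120 elsewhere had the same anchor size. A difference in size changes the expected contacts, and the ratio was not taken over pairs of the same size alone. The median ratio of enrichment was 0.821 (quartiles 0.671 and 1.07, 134 pairs, 0.771 to 0.909), with 87 of 134 pairs below 1. At the ends it was 0.932 (0.663 and 1.21, 135 pairs), its interval included 1 (0.841 to 1.05), and 75 of 135 pairs were below 1. Those counts are 64.9% and 55.6% of the pairs, and 60.9% of all matched pairs in the genome were below 1, so both shares are near the background. Elsewhere the ratio was 0.896 (0.882 to 0.913), inside the interval of the ends and of the starts.

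**Figure D3:**
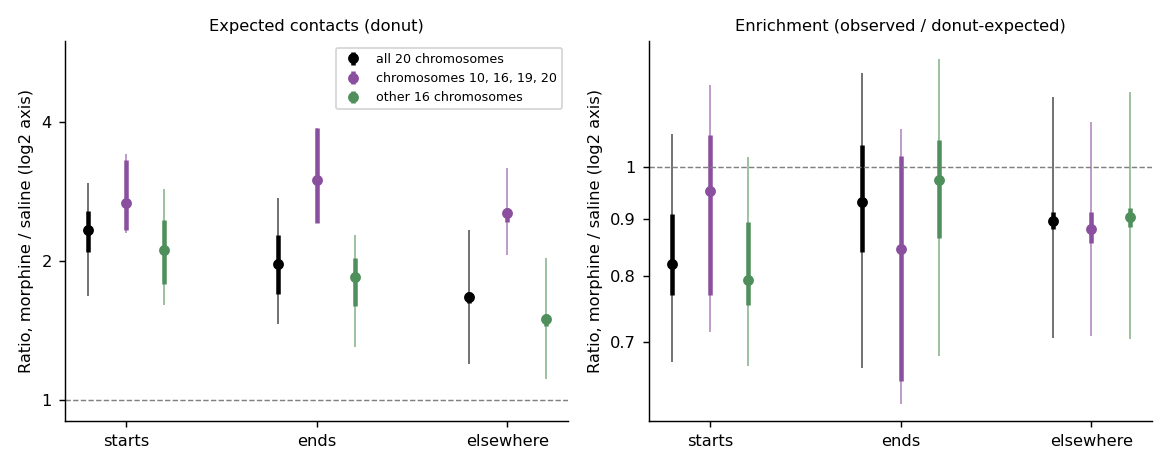
Ratio of the morphine over the saline map, on log2 axes, of donut-expected contacts (left, pairs of the same anchor size) and of enrichment (right, all pairs) at loops found in both maps, for starts, ends and the rest of the chromosomes. Points are medians over loop pairs, thick bars their 95% intervals and thin bars the quartiles, with all chromosomes in black, chromosomes 10, 16, 19 and 20 in purple and the other 16 in green: expected contacts lie above 1 in all groups, and the black medians are 2.34 at starts, 1.97 at ends and 1.67 elsewhere.

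Scaling the morphine contacts down could only remove morphine loops, because the saline contacts were left unscaled. A lower loop ratio was therefore built into the method, and only its size is given here. Loops were held to 1 Poisson limit, the value that 99% of the saline loops met. After division of the morphine contacts by 1.70 (1.695 before rounding), the genome-wide background factor, 359 morphine and 174 saline loops met it at starts (2.06, 1.72 to 2.49) and 364 and 188 at ends (1.94, 1.62 to 2.32), against a ratio of 1.24 elsewhere (1.19 to 1.29). After division by each set's own factor, the ratios were 1.55 at starts (270 loops, 1.28 to 1.89), 1.76 at ends (331 loops, 1.47 to 2.12) and 1.25 elsewhere (1.205 to 1.298). The interval of the starts then overlapped that of the rest, and the interval of the ends did not. The loops had been called before scaling, so these ratios do not stand for calls at equal depth. The factors came from matched loops of these same maps. The overlaps therefore do not measure the part of the background, which was not tested.

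Most saline loops near the chromosome ends had a morphine counterpart, and most morphine loops had no saline counterpart. A counterpart had both anchors overlapping after an extension of 10 kb. Of the saline loops, 134 of 179 at starts (74.9%, Clopper-Pearson interval 67.8 to 81.0) and 135 of 192 at ends (70.3%, 63.3 to 76.7) had one, while 62.4% of all saline loops did. Of the morphine loops, 135 of 421 at starts (32.1%, 27.6 to 36.8) and 136 of 440 at ends (30.9%, 26.6 to 35.5) had one, while 40.8% of all morphine loops did. The remaining 67.9% and 69.1% had none, as did 59.2% of all morphine loops. Both shares depend on how many loops each map has, and the maps differed more in this near the ends than elsewhere.

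The morphine loops without a counterpart had lower enrichment and often lay where the saline map had no anchor at all. Their median enrichment was 3.02-fold at starts (286 loops, 2.82 to 3.20) and 3.23-fold at ends (304 loops, 3.00 to 3.48). Loops with a counterpart reached 4.16-fold (3.70 to 4.97) and 4.61-fold (4.19 to 5.27). All 4 FDR values of the caller were at or under 0.01 for 39.2% and 41.1% of the loops without and for 63.0% and 69.9% of those with a counterpart. Elsewhere the contrast ran the same way, with enrichments of 3.305-fold and 4.74-fold and shares of 34.3% and 59.45%. Neither anchor lay within 10 kb of a saline anchor for 151 of the 286 loops at starts (52.8%) and 185 of the 304 at ends (60.9%), against 1828 of 4340 elsewhere (42.1%). For 117 and 91 loops 1 anchor was near a saline anchor, and for 18 and 28 both were.

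The saline loops without a counterpart, 45 at starts and 57 at ends, had median enrichments of 3.20-fold (2.93 to 4.31) and 3.58-fold (3.13 to 3.92). Neither anchor was near a morphine anchor for 12 and 17 of them, or 26.7% and 29.8%. This share was also lower for saline than for morphine loops elsewhere, 685 of 1938 (35.4%) against the 42.1% above.

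The authors' differential lists were more one-sided near the chromosome ends than elsewhere. They held 34 morphine-side and 3 saline-side loops at starts, a ratio of 11.3 (3.56 to 57.7), and 42 and 4 at ends, a ratio of 10.5 (3.81 to 40.3). Elsewhere they held 516 and 191, a ratio of 2.70 (2.28 to 3.21). Both intervals lie above that of the rest, though they rest on 7 saline-side loops in all. On the 16 chromosomes other than 10, 16, 19 and 20, the ratios were 6.33 (19 against 3, 1.86 to 33.4), 11 (33 against 3, 3.45 to 56.1) and 2.03 (337 against 166, 1.68 to 2.46). There the interval at starts overlapped that of the rest. As a share of the loops called, 8.08% of the morphine loops at starts (5.66 to 11.1) and 9.55% at ends (6.97 to 12.7) were in the list, where 7.09% of all morphine loops were. For saline it was 1.68% (0.347 to 4.82) and 2.08% (0.571 to 5.25), where 3.69% of all saline loops were. The interval of each of these 4 shares includes that background share. The rule by which the authors chose these lists is unknown. At 33 of the 40 chromosome ends at least 1 loop was in the morphine-side list and at 7 in the saline-side list.

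Of the 7 saline-side loops, the most enriched lay on chromosome 3 between 4585001 to 4590000 and 4645001 to 4650000. Its pixel held 9 contacts where the donut gave 1.56 (5.79-fold, exact interval 2.65 to 10.99). The loop with the lowest FDR values lay on chromosome 15 between 106910001 to 106920000 and 106970001 to 106980000, with 29 contacts against 7.33 (3.96-fold, 2.65 to 5.69). The highest of its 4 FDR values in the authors' deposited table was 0.000404. The chromosome 4 loop, 168480001 to 168485000 with 168575001 to 168580000, had 21 contacts against 5.35 (3.93-fold, 2.43 to 6.01). All 7 spanned 35 to 100 kb. The remaining 4 were less enriched. They joined 1850001 to 1860000 with 1950001 to 1960000 on chromosome 8 (2.74-fold), 2230001 to 2240000 with 2310001 to 2320000 on chromosome 7 (2.72-fold), 71855001 to 71860000 with 71890001 to 71895000 on chromosome 16 (2.46-fold) and 220690001 to 220700000 with 220750001 to 220760000 on chromosome 1 (2.44-fold). Apart from the loop on chromosome 15, the highest of the 4 FDR values in the authors' deposited table lay between 0.0591 and 0.365.

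Of the 5 most enriched morphine-side loops, 4 spanned 750 kb or more. The first ran on chromosome 17 from 1620001 to 1630000 to 2370001 to 2380000, a span of 750 kb, with 14 contacts against 0.371 (37.7-fold, 20.6 to 63.3). The next, on chromosome 7 from 168400001 to 168410000 to 169150001 to 169160000, also spanned 750 kb, with 11 contacts against 0.713 (15.4-fold, 7.70 to 27.6). Loops over 970 kb on chromosome 3, from 860001 to 870000 to 1830001 to 1840000 (11.1-fold, 5.57 to 19.95), and over 800 kb on chromosome 5, from 185860001 to 185870000 to 186660001 to 186670000 (10.03-fold, 5.18 to 17.5), followed with 11 and 12 contacts. The fifth, on chromosome 7 from 168245001 to 168250000 to 168335001 to 168340000, spanned 90 kb, with 13 contacts against 1.65 (7.90-fold, 4.21 to 13.5). It had a saline counterpart within 10 kb, with 15 contacts against 2.51 (5.98-fold). These loops were picked for their enrichment, which therefore leans upward.

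Several of the most enriched loops had low expected values. The most enriched saline loop at starts, on chromosome 7 between 350001 to 355000 and 440001 to 445000, held 17 contacts where 0.201 were expected (84.7-fold, 49.3 to 136). In the morphine map the same pixel held 30 contacts against 0.380 (79.1-fold, 53.3 to 113). Its expected value was far below that of other loops of 5 kb anchors and like span (within 20%), whose median was 2.71 in the saline map (336 loops) and 5.49 in the morphine map (690 loops). The most enriched saline loop at ends, on chromosome 7 between 167960001 to 167965000 and 169130001 to 169135000, held 18 contacts against 0.165 (109-fold, 64.8 to 173), and its morphine counterpart held 27 against 0.569 (47.5-fold). Each of these saline loops was also among the 3 most enriched morphine loops of its set, but the first of each morphine set lay elsewhere.

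The most enriched morphine loop at starts ran on chromosome 9 from 560001 to 570000 to 2910001 to 2920000, a span of 2350 kb. Its pixel held 153 contacts where 1.74 were expected (87.7-fold, 74.3 to 103), and the same pixel in the saline map held 45 against 1.09 (41.4-fold). Here the expected value was close to the median of 1.62 of 39 morphine loops of like span and anchor size, and the contacts were above their median of 17. A loop from 370001 to 380000 to 2920001 to 2930000 on chromosome 12 held 33 contacts against 0.380 (86.8-fold, 59.8 to 122) in the morphine map, and the saline map had no loop with an anchor near either side. At the ends the most enriched morphine loop, on chromosome 17 from 92630001 to 92635000 to 93935001 to 93940000, held 23 contacts against 0.406 (56.6-fold, 35.9 to 85.0), also without a saline anchor.

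Other saline loops among the 3 most enriched of their set had morphine counterparts. On chromosome 15 the loop from 3635001 to 3640000 to 4340001 to 4345000 held 15 contacts in the saline (68.6-fold) and 46 in the morphine map (73.5-fold). On chromosome 7 the loop from 2820001 to 2825000 to 3960001 to 3965000 held 24 contacts (59.0-fold) and 35 (28.6-fold), and the one from 168690001 to 168695000 to 168765001 to 168770000 held 32 (45.0-fold) and 46 (32.8-fold). On chromosome 11 the loop from 132380001 to 132385000 to 132635001 to 132640000 held 33 (37.4-fold) and 70 (19.1-fold). Contacts were higher in the morphine map at all 4 of these loops, and enrichment at 1.

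**Figure D4:**
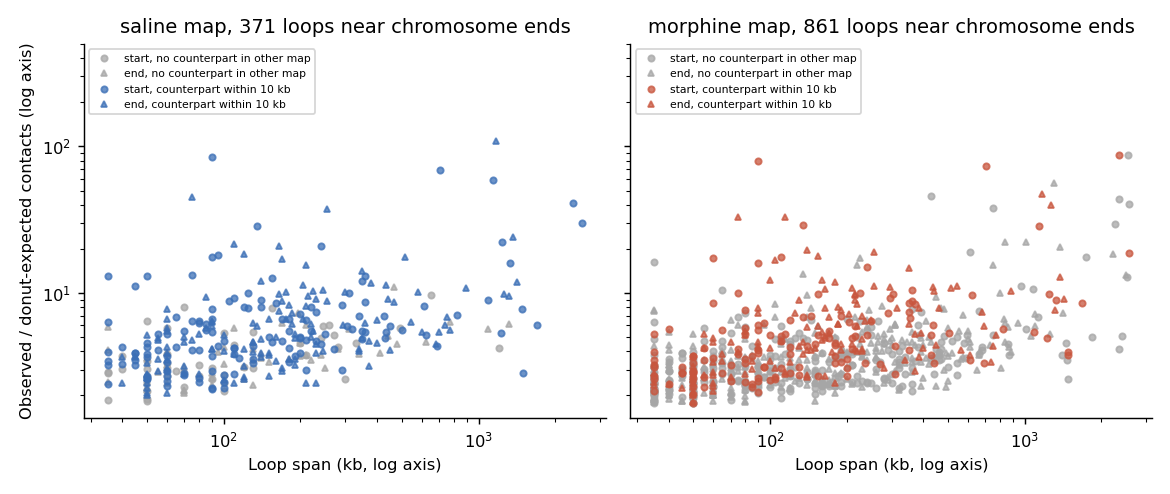
Enrichment (observed over donut-expected contacts, log y axis) against loop span in kb (log x axis) for the 371 saline loops (left) and 861 morphine loops (right) near chromosome ends, 1 point per loop, circles at starts and triangles at ends. Coloured points have a counterpart in the other map within 10 kb (269 saline, 271 morphine loops) and grey points have none; grey points prevail in the morphine map, and loops over 30-fold occur in both maps.

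Loops of 1 Mb or more near the chromosome ends were most numerous at 3 chromosome ends, which were singled out after their values were seen. The saline map had 18 and the morphine map 41, of which the end of chromosome 7 and the starts of chromosomes 9 and 20 held 11 and 20. At the end of chromosome 7, 5 saline and 7 morphine loops ran side by side between about the same stretches. In the morphine map these were 167955001 to 168190000 and 169125001 to 169365000. At the start of chromosome 20, 3 saline and 6 morphine loops joined 2690001 to 2830000 with 4020001 to 4230000 (in the saline map 2690001 to 2730000 with 4020001 to 4210000), with 12 to 27 contacts in the saline and 17 to 33 in the morphine map. At the start of chromosome 9 there were 3 saline and 7 morphine loops of 1700 to 2560 kb and 1680 to 2560 kb. Loops at 1 chromosome end share a neighbourhood and are not independent. Of all 18 saline loops of this length, 15 had a morphine counterpart, while 15 of the 41 morphine loops had a saline one.

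Loop length differed slightly between the starts and the rest. The median span at starts was 110 kb in the saline map (interval 90 to 130) and 120 kb in the morphine map (100 to 140), against 140 kb elsewhere in both (140 to 150 and 140 to 145). At ends it was 140 kb in both maps. Starts had more short loops, with 44.7% of saline loops (37.3 to 52.3) and 43.5% of morphine loops (38.7 to 48.4) under 100 kb, against 35.8% and 36.9% elsewhere. They also had more of 1 Mb or more, 6.15% (11 loops, 3.11 to 10.7) and 6.18% (26 loops, 4.07 to 8.92), against 2.66% and 2.74%. Many of these long loops came from the starts of chromosomes 9 and 20, with 3 and 3 of the saline and 7 and 6 of the morphine loops. The intervals treat such loops as independent, which they are not. The window itself leaves out loops that leave it, which affects long loops most. The longest loops in the windows joined 430001 to 440000 with 2990001 to 3000000 (saline) and 340001 to 350000 with 2900001 to 2910000 (morphine) on chromosome 9, each spanning 2560 kb. A second morphine loop of that span, 420001 to 430000 with 2980001 to 2990000, was the counterpart of the saline loop. At ends the longest spanned 1420 kb on chromosome 17 in the saline map (90700001 to 90710000 with 92120001 to 92130000) and 2490 kb on chromosome 15 in the morphine map (105800001 to 105810000 with 108290001 to 108300000).

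At starts 2 morphine loops tied as the outermost, both with an anchor from 145001 to 150000. They reached 190001 to 195000 on chromosome 4 (24 contacts against 7.97, 3.01-fold) and 180001 to 185000 on chromosome 7 (20 against 6.91, 2.89-fold). The outermost saline loop at starts lay on chromosome 6, 180001 to 185000 with 275001 to 280000 (13 against 0.716, 18.2-fold). It had a morphine counterpart with 30 contacts against 5.35 (5.61-fold), one of the 3 pairs with the lowest enrichment ratio of all 269 matched pairs near chromosome ends. At ends no single loop was outermost, because distances there are measured from the highest listed coordinate, which a loop anchor often set: 10 morphine loops on 10 chromosomes and 6 saline loops on 6 tied. Their enrichment ranged from 2.33-fold on chromosome 19 to 9.76-fold on chromosome 6 in the morphine map, and from 2.14-fold on chromosome 8 to 6.10-fold on chromosome 7 in the saline map. At the edge of the window, the innermost saline and morphine loops at starts reached 4.97 Mb (8.05-fold) and 4.99 Mb (2.62-fold) from the tip, and the nearest loops left out reached 5.07 Mb (3.66-fold) and 5.04 Mb (4.26-fold). At ends the innermost reached 4.99 Mb in both maps (2.46-fold and 3.64-fold), and the nearest left out 5.01 Mb in both (11.3-fold in the saline map; 2 morphine loops tied, at 3.56-fold and 12.7-fold).

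Single matched loops differed in both directions. The lowest ratio of enrichment, 0.198, was at the start of chromosome 20, where a loop from 4025001 to 4030000 to 4060001 to 4065000 held 20 contacts against 1.54 in the saline map (13.0-fold) and its counterpart 33 against 12.8 in the morphine map (2.57-fold). The highest ratio, 4.53, was on the same chromosome, where a loop from 2650001 to 2655000 to 2700001 to 2705000 held 19 against 4.97 (3.82-fold) and its counterpart, with the second anchor 10 kb further in, 71 against 4.11 (17.3-fold). Others with low ratios lay on chromosomes 17 (2305001 to 2310000 with 2355001 to 2360000, 13.0-fold to 3.70-fold) and 6 (above). Others with high ratios lay at the ends of chromosomes 7 (168060001 to 168070000 with 169320001 to 169330000, 9.86-fold to 39.7-fold) and 15 (109010001 to 109020000 with 109110001 to 109120000, 3.99-fold to 12.3-fold). In 3 of these 6 pairs the anchors differed in size between the maps, which changes the expected contacts. The pairs were picked for the size of the difference.

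Anchors shared by several loops made up a larger share in the morphine map, though the intervals of the maps overlapped. This share also depends on how many loops each map has in the same windows. Regions of overlapping anchors with 3 or more loop ends made up 1 of 330 at starts and 2 of 353 at ends in the saline map (0.303%, 0.00767 to 1.68, and 0.567%, 0.0687 to 2.03). In the morphine map they made up 18 of 701 (2.57%, 1.53 to 4.03) and 13 of 754 (1.72%, 0.921 to 2.93). Elsewhere the shares were 1.07% and 2.52%, within the intervals of the windows. The region with the most ends in the morphine map, 5, lay at the start of chromosome 20 from 2690001 to 2700000, where long loops also began (above). At the ends it lay on chromosome 16 from 75250001 to 75260000, with 4. The saline map had 3 regions with 3 ends, on chromosomes 14 (1970001 to 1980000 and 122840001 to 122850000) and 1 (221480001 to 221490000).

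Near the chromosome ends, 54.2% of saline and 58.1% of morphine loops lay outside every listed domain. Topologically associating domains are segments with frequent contact inside and less across their borders. The domain lists began 2.28 to 6.36 Mb from the start of each chromosome in the saline map and 2.36 to 5.96 Mb in the morphine map (medians 3.00 and 2.96 Mb). At the ends the outermost domain stopped 0.300 to 5.34 Mb (saline) and 0.380 to 5.42 Mb (morphine) before the highest coordinate. Domains covered 29.9% of the start windows and 48.0% of the end windows in the saline map, and 30.7% and 48.3% in the morphine map, but 98.1% of the rest of the chromosomes in both. Most of the sequence at the chromosome starts was thus in no domain in either map.

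Neither anchor lay in a domain for 111 of 179 saline loops at starts (62.0%, 54.5 to 69.2) and 90 of 192 at ends (46.9%, 39.7 to 54.2), where the share over all saline loops was 3.72%. In the morphine map it was 282 of 421 (67.0%, 62.3 to 71.5) and 218 of 440 (49.5%, 44.8 to 54.3), where the share over all morphine loops was 6.09%. All of these loops lay beyond the outermost domain of their chromosome end, so the shares depend on how far the domain lists reach into the windows. In the first Mb from the starts the share was 100% in both maps, from 4 to 5 Mb it was 15.8% (saline) and 14.1% (morphine), and from 7.5 to 10 Mb it was 0 at either end.

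**Figure D5:**
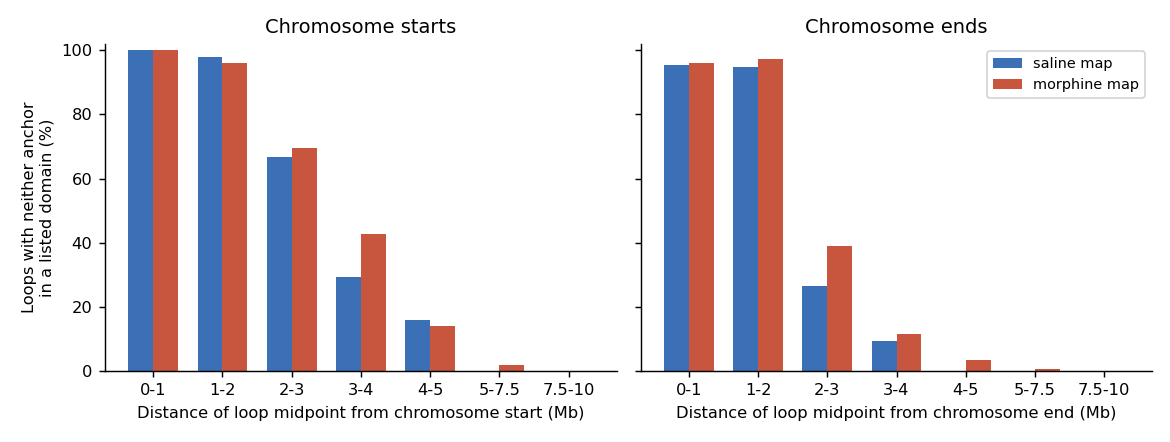
Share of loops with neither anchor in a domain of the same map (y axis, percent, from 0) by distance of the loop midpoint from the chromosome start (left) or end (right) in Mb, for the saline map (blue) and the morphine map (red). The bars stand at 100% in the first Mb of the starts and at 0 from 7.5 to 10 Mb.

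Domains covered 98.1% of the rest of the chromosomes in both maps, which left little room there for loops outside domains. The windows near chromosome ends accordingly held nearly all loops of the genome that were in no domain. They held 201 of 205 such loops in the saline map (98.0%, 95.1 to 99.5) and 500 of 513 in the morphine map (97.5%, 95.7 to 98.6). The share of loops inside a single domain was, over all loops, 88.7% for saline and 84.8% for morphine, a difference of -3.81 percentage points, and without the loops near chromosome ends it was 92.0% and 90.3%, a difference of -1.75 points. Within the windows the share was 36.9% at starts (29.8 to 44.4) and 46.4% at ends (39.2 to 53.7) in the saline map, and 28.5% (24.2 to 33.1) and 45.2% (40.5 to 50.0) in the morphine map. More morphine than saline loops were found both outside and inside domains. At starts the ratio was 2.54 (2.03 to 3.19) for loops outside all domains and 1.82 (1.34 to 2.49) for loops inside 1 domain, and at ends it was 2.42 (1.89 to 3.13) and 2.24 (1.73 to 2.90). All 4 intervals lie above 1, and those inside and outside domains overlap. Elsewhere the ratio for loops inside 1 domain was 1.45 (1.39 to 1.50). That value lay within the interval inside domains at starts and below the one at ends. Outside all domains, the rest held too few loops to compare (1 saline and 5 morphine).

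The few domain boundaries in the windows were shared about as often as others at starts and more often at ends. Within 40 kb, 10 of 20 saline boundaries at starts (50.0%, 27.2 to 72.8) and 25 of 33 at ends (75.8%, 57.7 to 88.9) had a morphine boundary, against 54.4% elsewhere (51.4 to 57.4). From the morphine side it was 11 of 22, 25 of 33 and 52.3% elsewhere. Median boundary scores, whose scale is not stated, were 0.617 and 0.603 at starts and 0.577 and 0.590 at ends in the saline and morphine maps, against 0.694 and 0.657 elsewhere, and the intervals of the windows included the values elsewhere.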

How the data were processed

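The submitters deposited 1 loop list, 1 differential loop list and 1 domain list per group, pooled over libraries. Per the file headers, the loop lists have the column layout of the HiCCUPS caller, but the caller, aligner and domain caller are not stated. The genome build in the submitters' processing notes is hg19, which is human; the lists hold 20 autosomes and X, so no build is assigned. Deposited observed values are raw counts of contacts per loop pixel (at least 8). Deposited expected values are a background signal in contacts, with 4 q-values (FDR, up to 0.5) per loop, and deposited domain boundary values are a score of unstated scale. Anchors were 5 or 10 kb.

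Loops were assigned by anchor midpoints, matched within 10 kb (1 bp overlap, reciprocal nearest for ratios) and compared by counts, shares and medians with 95% intervals (Python 3.11.15, scipy 1.17.1). Intervals cover counting error or spread over loops only. Matching was checked on simulated loops that lay well apart and had equal anchor sizes. The intervals were checked on independent draws. Crowded loops, mixed anchor sizes and dependent loops were not covered. Pixel depth limits precision: the median loop held 20 to 29 contacts near chromosome ends. Alternatives covered the window, anchors, FDR, chromosomes, backgrounds, matching and scaling. Named loops are the 3 most enriched, the outermost and the longest (with ties) of each map and end, all 7 saline-side and the 5 most enriched morphine-side differential loops, the 3 largest changes in each direction, the chromosome ends with the most members, none or the largest differences, and the most connected anchor of each map. The members and lists were chosen with earlier results of these data known. Loops of chromosome X were not used in comparisons.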

Additional observations from a re-analysis of the deposited data

How the results depend on the processing

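The 22 results were recomputed under those of 15 other settings that apply to each, giving 96 values, of which 74 lay within the interval of the value in the text. The enrichment ratio at ends, whose interval includes 1, was 1.005 when anchors were not extended, above 1 in place of below. No paired analysis was possible because each list pools the libraries of its group and no column carries a replicate number; leaving out a library could not be run for the same reason. Dividing the morphine contacts by the background ratio of each set, which could only remove morphine loops, gave a loop ratio of 1.55 at starts and 1.76 at ends. Loops with 10 kb anchors alone gave 1.67 at ends (1.14 elsewhere). Leaving out each chromosome in turn, chosen after seeing the data, gave 2.27 to 2.43 at starts and 2.20 to 2.40 at ends. Matching without an extension of the anchors lowered the share of saline loops with a counterpart to 36.3% at starts and 37.5% at ends and that of morphine loops to 15.4% and 16.4%; an extension of 20 kb gave 84.9% and 77.1% for saline and 37.05% for morphine at starts. With all 4 FDR values at or under 0.01, 84.4% of saline loops at ends and 43.15% (starts) and 43.18% (ends) of morphine loops had a counterpart. The same filter left 3.05% (starts) and 4.55% (ends) of morphine loops and 0% of saline loops at starts (0 of 75, upper bound 4.80%) in the differential lists. The median span of morphine loops with 10 kb anchors was 190 kb at starts and 175 kb at ends. In a window of 10 Mb the share inside 1 domain was 68.4% and 69.15% of saline and 59.05% and 66.75% of morphine loops at starts and ends; the cause of these shifts was not tested. At this depth the interval of the ratio lay above 1 at 20 of 40 single chromosome ends. At most ends it included the ratio of the rest of the same chromosome.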

Other observations

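The start of chromosome 17 held the 2 loops with the most contacts of the morphine map at chromosome starts. A morphine loop from 2330001 to 2340000 to 2380001 to 2390000 held 616 contacts against 346 expected (1.78-fold), and the next, from 2350001 to 2360000 to 2400001 to 2410000, held 192 against 79.4 (2.42-fold). The saline counterpart of the first, with 5 kb anchors, held 37 contacts against 14.2 (2.61-fold), and the second had none. Both were singled out after their values were seen. Without them the ratio of contacts at starts was 3.63 in place of 3.83.

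The loop with the most contacts at chromosome ends was the same in both maps, from 68330001 to 68340000 to 68680001 to 68690000 on chromosome 18. It held 224 contacts against 15.1 expected in the morphine map (14.8-fold) and 90 against 6.36 in the saline map (14.2-fold). At the start of chromosome 3, the loop from 1830001 to 1840000 to 1910001 to 1920000 was the saline loop with the most contacts at starts, with 74 against 18.2 (4.08-fold), and it held 165 against 46.3 in the morphine map (3.56-fold).

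By anchor size, the loop ratio was higher at 5 kb than at 10 kb in all sets, at ends and elsewhere with intervals that did not overlap. It was 2.89 (2.21 to 3.82) and 1.97 (1.55 to 2.52) at starts, and 3.72 (2.78 to 5.07) and 1.67 (1.34 to 2.09) at ends, against 2.08 (1.96 to 2.20) and 1.14 (1.09 to 1.195) elsewhere. Loops with 5 kb anchors made up 41.3% of saline loops at starts and 30.2% at ends, and 50.8% and 49.1% of morphine loops. The lower left over the donut background had a median of 0.979 and 0.969 at starts and 0.989 and 1.00 at ends in the saline and morphine maps, against 0.997 and 1.00 elsewhere.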
